A study of Homo sapiens with 6 samples.

Results

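The genes described are 48 liver-made complement and clotting factors and their inhibitors, 25 of complement and 23 of coagulation, taken as the rows of the deposited expression table whose Ensembl identifiers carry these symbols in GENCODE release 29. Of the 48, 47 had a row among the 29908 genes of the table, and F9 was not analysed here. A further 9 members, C4A, C4B, MASP2, CFB, C9, F13B, SERPINC1, THBD and PLG, had a mean under 0.5 FPKM (reads scaled to the exon length of the gene and to the depth of the library) and were not tested, which left 38 members among 14221 genes tested. The rule uses names and function, though it was drawn up with earlier results of these data known.

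RNA was sequenced from Hep3B, an established human hepatocellular carcinoma cell line, to ask which genes changed when DAGLA was knocked down. DAGLA encodes diacylglycerol lipase alpha, the enzyme that makes the endocannabinoid 2-arachidonoylglycerol. Hep3B-KD cells (n = 3 libraries) carried a lentiviral short hairpin RNA against DAGLA, and Hep3B-Con cells (n = 3 libraries) carried a control lentivirus, which the sample titles call shControl and the design text an empty vector. Both groups were selected with puromycin and grown without any further treatment in medium with fetal bovine serum, named as DMEM in the sample records and as MEM-alpha in the paper. A single hairpin was used, and the libraries are called biological replicates without a statement that they came from separate infections, so p-values measure only the spread between these libraries. DAGLA itself was at 9.42, 9.40 and 9.02 FPKM in the Hep3B-Con libraries and at 4.62, 4.46 and 4.78 FPKM in the Hep3B-KD libraries, and its log2 fold change was -0.99 ± 0.04 (SE, adjusted p = 5.25e-06).

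Complement is a chain of plasma proteases and binding proteins. The classical, lectin and alternative pathways each cleave C3, after which C5 is cleaved and the terminal components assemble into a pore, while soluble and membrane-bound regulators limit every step. Clotting runs along a similar chain of serine proteases from tissue factor or contact activation to thrombin, held in check by serpins, by the tissue factor pathway inhibitor and by the protein C system. Hepatocytes secrete most of these proteins into plasma, and several of the clotting factors need vitamin K for their maturation.

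Most members were higher in Hep3B-KD cells. By limma, at an adjusted p under 0.05, 28 of the 38 members tested rose (73.7%), against 36.1% of all genes. Of the members, 3 fell (7.89%), against 23.8% of all genes, and 7 did not pass the test. Of the 3 falls, that of CD55 held in all 16 alternative fits, and those of MBL2 and PROC did not. A rise of at least 2-fold was called for 13 members (34.2%), against 5.89% of all genes, and a fall of at least 2-fold for 0, against 2.94%. With a pseudocount of 1 FPKM in place of 0.1, which shrinks the changes of low genes such as C1R, C1S, F11 and KLKB1, 6 members rose at least 2-fold, against 255 of all genes. The median log2 fold change of the members was 0.63, and that of all genes tested was 0.11. Among the members, 29 of the 38 lay above the median of all genes. When each library was centred on its median log ratio, 25 members rose and 6 fell, against 4064 and 4308 of all genes. C1R and KLKB1 passed the filter on low values only through Hep3B-KD, because their Hep3B-Con means were under 0.5 FPKM. In these bulk libraries, a change in the share of cells that make a transcript and a change in the amount per cell cannot be told apart.

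**Figure D1:**
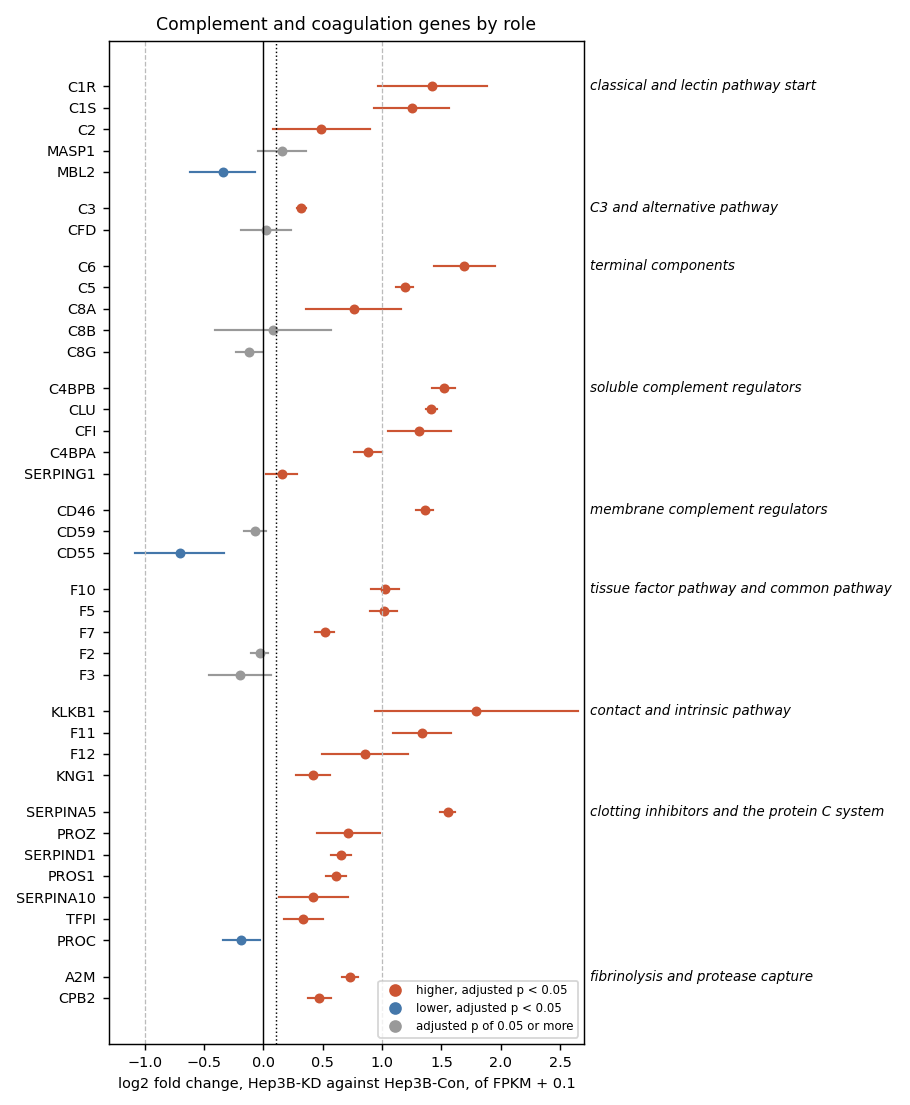
Log2 fold change of FPKM + 0.1 in Hep3B-KD against Hep3B-Con (x axis) of the 38 members tested, grouped by role. Points are limma estimates and lines their 95% confidence intervals, the dotted line is the median of all genes at 0.11 and the dashed lines mark 2-fold; 13 points called higher lie at or beyond the right dashed line and 0 beyond the left one.

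Of 20 complement members tested, 13 rose and 2 fell, with a median log2 fold change of 0.62, and 8 rose at least 2-fold. Of 18 coagulation members tested, 15 rose and 1 fell, with a median of 0.63, and 5 rose at least 2-fold. These counts, and those of the smaller groups of genes below, stand beside the same shares of all genes. Of all genes 36.1% rose, 23.8% fell and 5.89% rose at least 2-fold. The difference between the branches was not tested. The 47 members with a row summed to 643 ± 2.16 FPKM (mean ± SD of 3 libraries) in Hep3B-Con and to 994 ± 8.99 FPKM in Hep3B-KD, a ratio of 1.55. C3 alone made up 251 FPKM of the Hep3B-Con sum, and the ratio without C3 was 1.73.

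Hepatocyte markers were expressed in both groups. All 10 hepatocyte markers were over the filter, among them ALB at 2042 ± 25.9 FPKM in Hep3B-Con and 3315 ± 6.90 FPKM in Hep3B-KD. Of the 10, 8 rose and 2 fell, the latter being AHSG, a secreted carrier, and HNF4A, the nuclear receptor that many hepatocyte genes depend on (log2 fold change -0.35 ± 0.02, adjusted p = 1.64e-05). Their summed level was between 5188 and 5291 FPKM in the Hep3B-Con libraries and between 7269 and 7376 FPKM in the Hep3B-KD libraries, so that the hepatocyte markers moved with the members, and their part in the result was not tested. Endothelial markers with a row numbered 7, all under the filter, and summed to between 0.230 and 0.274 FPKM in Hep3B-Con and between 0.342 and 0.448 FPKM in Hep3B-KD. The 5 macrophage and blood cell markers summed to between 0.850 and 1.38 FPKM in Hep3B-Con and between 0.922 and 1.06 FPKM in Hep3B-KD, and the 5 megakaryocyte markers to between 0.964 and 1.10 and between 1.24 and 1.40 FPKM. Of 9 stellate cell and fibroblast markers, 3 were over the filter and all 3 of these fell, with sums between 9.57 and 10.6 FPKM in Hep3B-Con and between 5.91 and 6.52 FPKM in Hep3B-KD. A row was present for 7 of 10 endothelial, 5 of 10 macrophage and blood cell, and 5 of 8 megakaryocyte markers. The same was true of 9 of 10 stellate cell and fibroblast markers. No marker with a row was at 0 in all 6 libraries, but the markers without a row have no value here. The Hep3B-Con libraries held between 16644962 and 17572714 reads and the Hep3B-KD libraries between 15861039 and 16593115, a difference in depth whose part in the results was not tested.

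C3, the protein on which all 3 complement pathways converge, was the most abundant member. It stood at 248, 253 and 252 FPKM in the Hep3B-Con libraries and at 314, 309 and 316 FPKM in the Hep3B-KD libraries. The 3 Hep3B-KD libraries all lay above the Hep3B-Con libraries, yet the rise was small, and its log2 fold change was 0.32 ± 0.02 (adjusted p = 7.68e-06). CFD, the protease that cleaves factor B, averaged 7.95 ± 0.939 FPKM (SD of 3 libraries, as for all such values) in Hep3B-Con and 8.03 ± 0.435 FPKM in Hep3B-KD, and the groups overlapped (adjusted p = 0.871). CFB, the protease that CFD activates, had few reads counted. Its reads were 2, 8 and 12 in Hep3B-Con and 9, 3 and 9 in Hep3B-KD. Hence C3 was abundant beside few counted reads of its alternative pathway protease in either group. A readthrough gene without a row, AL645922.1, shares 45.0% of the exon bases of CFB. Reads from this stretch may have been left out of the count, so the level of CFB may be understated.

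The proteases that start the classical pathway rose. C1R and C1S form the protease core of the C1 complex and lie next to each other on chromosome 12. C1R was at 0.464, 0.616 and 0.378 FPKM in Hep3B-Con and at 1.38, 1.52 and 1.44 FPKM in Hep3B-KD, and its log2 fold change was 1.42 ± 0.19 (adjusted p = 0.000735). C1S was at 0.678, 0.721 and 0.772 FPKM in Hep3B-Con and at 2.13, 1.75 and 1.72 FPKM in Hep3B-KD, and its log2 fold change was 1.25 ± 0.13 (adjusted p = 0.000218). Both remained among the less abundant members, and in neither did the groups overlap. The exons of C1R share 11.4% of their bases with C1RL, which fell, so reads from this stretch may have gone to either gene.

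C2, the protease that joins C4 in the classical C3 convertase, was at 0.651 ± 0.0791 FPKM in Hep3B-Con and 0.952 ± 0.0910 FPKM in Hep3B-KD (adjusted p = 0.0446). Leaving out any 1 of the 6 libraries took C2 past the threshold, with adjusted p values between 0.0515 and 0.126. The readthrough gene AL645922.1, which overlaps CFB, also shares 32.9% of the exon bases of C2. In the lectin pathway, the recognition protein MBL2 was at 1.43 ± 0.107 FPKM in Hep3B-Con and 1.10 ± 0.0699 FPKM in Hep3B-KD (log2 fold change -0.34 ± 0.11, adjusted p = 0.0366), and it too lost its call when a library was left out, with the exception of Hep3B-Con replicate 2. The lectin pathway protease MASP1 showed a log2 difference of 0.16 ± 0.08 (adjusted p = 0.152).

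C4A and C4B encode the isotypes of C4 and were both under the filter. Their transcripts were identical at 99.76% of 5427 aligned bases, so that short reads can rarely be given to one copy, and their reads were summed. The isotypes are set by a stretch of the coding sequence that starts in codon 1118, shown here from the plus strand of GRCh38 (GENCODE release 29) at chr6:31996077-31996106 for C4A and chr6:32028815-32028844 for C4B. Capitals mark the 5 bases of the 30 at which the copies differ:
C4A: aggaccCctGtccagtgTtaGaCaggagca
C4B: aggaccTctCtccagtgAtaCaTaggagca
The remaining differences between these transcripts bring the total to 13 substitutions. Reads of both genes together numbered 29, 33 and 30 in Hep3B-Con and 96, 88 and 85 in Hep3B-KD, a ratio of 3.11 after scaling to depth. Reads that fit both copies may have been left out of the count, so the level of C4 may be understated. The lectin pathway protease MASP2, also under the filter, was at 0.228 ± 0.0661 FPKM in Hep3B-Con and 0.569 ± 0.0997 FPKM in Hep3B-KD, and was higher in the fit with no filter (adjusted p = 0.0337).

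Among the terminal components, the gain was uneven. C5, whose cleavage begins the assembly of the pore, was at 13.9, 14.3 and 13.7 FPKM in Hep3B-Con and at 32.2, 31.3 and 32.3 FPKM in Hep3B-KD, and its log2 fold change was 1.19 ± 0.03 (adjusted p = 5.41e-07). C6, which binds activated C5, was at 0.660, 0.595 and 0.647 FPKM in Hep3B-Con and at 2.38, 2.21 and 2.23 FPKM in Hep3B-KD, and its log2 fold change was 1.69 ± 0.11 (adjusted p = 2.14e-05). Both genes more than doubled with no overlap between groups, and C6 stayed far below C5 in level. C8 is built of 3 chains from 3 genes. C8A was at 1.02 ± 0.216 FPKM in Hep3B-Con and 1.77 ± 0.169 FPKM in Hep3B-KD (adjusted p = 0.00691). The other 2 chains did not pass the test, with log2 fold changes of 0.08 ± 0.20 for C8B (adjusted p = 0.755) and -0.12 ± 0.05 for C8G (adjusted p = 0.055). C8G was by far the most abundant of the chains, at 19.3 ± 1.05 FPKM in Hep3B-Con and 17.7 ± 0.462 FPKM in Hep3B-KD. C9, the pore-forming unit, had 1 read in 1 Hep3B-KD library and 0 in the other 5 libraries, which allows up to 3 reads in each.

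All 5 soluble complement regulators rose, 3 of them at least 2-fold, against 36.1% and 5.89% of all genes. CLU encodes clusterin, a chaperone that also blocks the terminal pore, and was the second most abundant member. It was at 53.0, 53.9 and 52.3 FPKM in Hep3B-Con and at 143, 139.9 and 143 FPKM in Hep3B-KD, and its log2 fold change was 1.41 ± 0.02 (adjusted p = 6.41e-08). C4BPB, the beta chain of C4b-binding protein, was at 3.45, 3.40 and 3.53 FPKM in Hep3B-Con and at 10.3, 9.86 and 10.1 FPKM in Hep3B-KD, and its log2 fold change was 1.52 ± 0.04 (adjusted p = 7.15e-07). Replicates of both genes lay close together and the groups were far apart. CFI, the protease that inactivates C3b and C4b, was at 1.02, 1.30 and 1.15 FPKM in Hep3B-Con and at 2.81, 3.04 and 3.18 FPKM in Hep3B-KD, and its log2 fold change was 1.31 ± 0.11 (adjusted p = 7.25e-05). A readthrough gene with no row, AC126283.2, shares 32.0% of the exon bases of CFI. C4BPA, the alpha chain that holds the binding sites for C4b, was at 5.59 ± 0.111 FPKM in Hep3B-Con and 10.4 ± 0.566 FPKM in Hep3B-KD. SERPING1, the C1 inhibitor, was at 6.26 ± 0.0617 and 6.98 ± 0.470 FPKM (adjusted p = 0.049), and this call was lost in each fit without 1 library except that without Hep3B-KD replicate 2.

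The 3 membrane regulators went in different directions. CD46, a cofactor for the cleavage of C3b by factor I, was at 19.3, 19.1 and 18.8 FPKM in Hep3B-Con and at 48.01, 50.9 and 48.2 FPKM in Hep3B-KD, and its log2 fold change was 1.36 ± 0.03 (adjusted p = 3.66e-07). CD55, which takes C3 convertases apart, was at 1.68, 1.38 and 1.21 FPKM in Hep3B-Con and at 0.747, 0.875 and 0.867 FPKM in Hep3B-KD, and its log2 fold change was -0.70 ± 0.16 (adjusted p = 0.00747). Neither gene had overlapping groups. CD59, which keeps the terminal pore from forming, was at 15.4 ± 0.426 and 14.7 ± 0.546 FPKM, and its groups overlapped (adjusted p = 0.16).

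CD46 and CD55 belong to a cluster of complement regulators on the long arm of chromosome 1 (GRCh38), in which C4BPB, C4BPA, CD55 and CD46 lie in this order between positions 207088842 and 207795513. C4BPB and C4BPA lie 4268 bases apart and both rose, CD55 follows after 176403 bases and fell, and CD46 follows after a further 365252 bases, with 3 other coding genes in between, and rose. These 4 members did not all move in 1 direction.

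**Figure D2:**
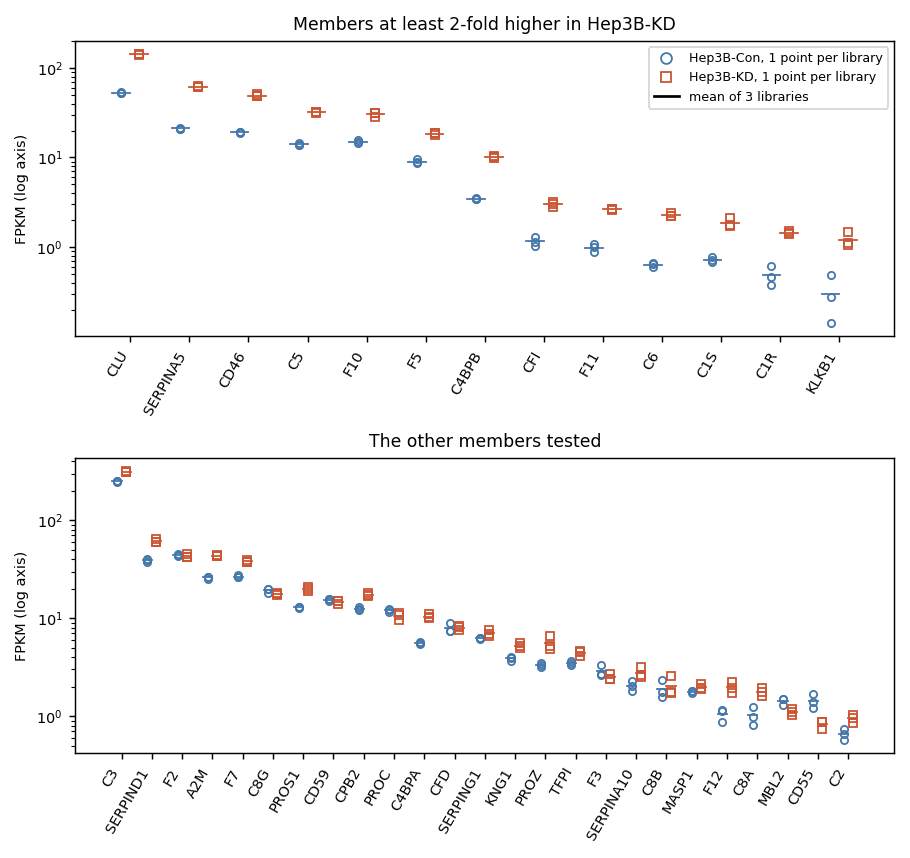
FPKM on a log axis (y) in each library of the 13 members called at least 2-fold higher in Hep3B-KD (upper panel) and of the other 25 tested members (lower panel). Circles are Hep3B-Con and squares Hep3B-KD libraries, 3 each, and short lines are group means; the squares lie above the circles for all 13 genes of the upper panel, from CLU at 53.1 and 142 FPKM to KLKB1 at 0.299 and 1.21 FPKM.

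In the tissue factor and common pathways, F10 and F5 doubled. F10, whose active form makes thrombin, was at 14.4, 14.9 and 15.5 FPKM in Hep3B-Con and at 28.5, 31.4 and 31.7 FPKM in Hep3B-KD, and its log2 fold change was 1.02 ± 0.05 (adjusted p = 7.76e-06). F5, the cofactor of factor X in that step, was at 8.59, 9.50 and 8.96 FPKM in Hep3B-Con and at 17.6, 18.6 and 18.6 FPKM in Hep3B-KD, and its log2 fold change was 1.01 ± 0.05 (adjusted p = 5.81e-06). Both lay at the border of the 2-fold threshold, and both fell below it with a pseudocount of 1 FPKM, when libraries were centred on their median log ratio, and without Hep3B-Con replicate 1. F5 was below it also by quantile normalization and without Hep3B-KD replicate 2, and F10 without Hep3B-KD replicate 3. F7, the protease that tissue factor binds, was at 26.2, 26.1 and 27.6 FPKM in Hep3B-Con and at 37.6, 39.1 and 37.6 FPKM in Hep3B-KD, and its log2 fold change was 0.52 ± 0.03 (adjusted p = 2.05e-05). F2, the gene of prothrombin, was at 44.7, 43.4 and 44.8 FPKM in Hep3B-Con and at 42.3, 42.6 and 45.1 FPKM in Hep3B-KD. The F2 groups overlapped, and the log2 fold change of -0.03 had a 95% confidence interval from -0.11 to 0.04 (adjusted p = 0.411). For F3, tissue factor itself, the log2 fold change was -0.20 ± 0.11 (adjusted p = 0.165). F13B, a carrier chain of factor XIII, was under the filter at 0.312 ± 0.117 and 0.348 ± 0.0412 FPKM.

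F7, F10 and PROZ, the gene of the vitamin K-dependent protein Z, lie one after the other on the plus strand of chromosome 13 with no other coding gene between them. F7 ends 2132 bases before F10 and F10 ends 9124 bases before PROZ. All 3 rose, and their log2 fold changes were 0.52, 1.02 and 0.72. The RefSeq promoters of the 3 genes (GRCh38.p14, 300 bases ending 50 bases into the gene, plus strand) are shown because these neighbours moved together, with the letters of a motif in capitals:
F7, chr13:113105541-113105840: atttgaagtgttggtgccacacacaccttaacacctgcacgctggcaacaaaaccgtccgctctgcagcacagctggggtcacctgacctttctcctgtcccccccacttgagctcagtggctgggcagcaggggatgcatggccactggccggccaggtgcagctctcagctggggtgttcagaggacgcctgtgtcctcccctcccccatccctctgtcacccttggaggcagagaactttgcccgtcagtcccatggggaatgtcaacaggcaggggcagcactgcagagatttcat
F10, chr13:113122549-113122848: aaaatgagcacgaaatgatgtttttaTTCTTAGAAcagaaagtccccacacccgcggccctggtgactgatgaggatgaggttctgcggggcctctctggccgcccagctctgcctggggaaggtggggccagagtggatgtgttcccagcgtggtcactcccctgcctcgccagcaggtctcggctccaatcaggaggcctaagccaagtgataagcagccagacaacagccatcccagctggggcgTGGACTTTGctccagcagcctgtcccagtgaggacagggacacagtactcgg
PROZ, chr13:113158398-113158697: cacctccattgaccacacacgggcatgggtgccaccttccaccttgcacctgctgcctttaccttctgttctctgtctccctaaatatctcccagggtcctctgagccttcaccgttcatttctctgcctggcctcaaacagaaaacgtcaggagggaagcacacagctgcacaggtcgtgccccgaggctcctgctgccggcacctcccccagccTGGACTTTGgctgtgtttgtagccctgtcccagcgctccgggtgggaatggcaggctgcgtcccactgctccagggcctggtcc
The letters searched, on both strands, were CAAAGTCCA for HNF4, GTTAAT for HNF1 (1 of the 2 arms of its palindromic site), TTGCNNAA for C/EBP and TTCNNNGAA for STAT3. The HNF4 letters, here on the minus strand, were in the promoters of F10 and PROZ, and the STAT3 letters were in that of F10. The F7 window held no exact match to the letters of the 4 motifs. Sites that differ from these letters were not searched.

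All 4 tested members of the contact and intrinsic pathway rose, against 36.1% of all genes. KLKB1, the gene of plasma prekallikrein, was among the members with the lowest levels and passed the filter only through Hep3B-KD. It was at 0.482, 0.273 and 0.142 FPKM in Hep3B-Con and at 1.05, 1.12 and 1.47 FPKM in Hep3B-KD, with a log2 fold change of 1.79 and a wide 95% confidence interval from 0.94 to 2.65 (adjusted p = 0.00458). The size of this change depended on the pseudocount, being 0.77 with 1 FPKM in place of 0.1. F11, the next gene on the same strand of chromosome 4 after 7473 bases, was at 1.08, 0.992 and 0.875 FPKM in Hep3B-Con and at 2.64, 2.61 and 2.63 FPKM in Hep3B-KD, and its log2 fold change was 1.34 ± 0.10 (adjusted p = 4.69e-05). The neighbours thus rose together, with no overlap between groups. KLKB1 shares 6.8% of its exon bases with CYP4V2 on the same strand, so reads from this stretch may have gone to either gene. F12, which starts contact activation, was at 1.05 ± 0.158 FPKM in Hep3B-Con and 1.97 ± 0.251 FPKM in Hep3B-KD (adjusted p = 0.00257), and 14.4% of its exon bases lie opposite GRK6. KNG1, the kininogen that carries prekallikrein and factor XI, was the most abundant of the group, at 3.88 ± 0.164 FPKM in Hep3B-Con and 5.22 ± 0.286 FPKM in Hep3B-KD (adjusted p = 0.000979). Antisense genes cover 10.5% of the exon bases of F11 and 15.4% of those of KNG1, and whether strand was used in counting is not given in the sources used here.

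The promoter of KLKB1 held the letters of 3 of the 4 motifs, C/EBP first, then the HNF1 arm and STAT3. A promoter entry of C1R, which also rose, held the same 3. MBL2, which was called lower, had the HNF1 arm in one entry and the C/EBP and STAT3 letters in another. The KLKB1 promoter is shown as an example (RefSeq, GRCh38.p14, plus strand, motif letters in capitals):
KLKB1, chr4:186227257-186227556: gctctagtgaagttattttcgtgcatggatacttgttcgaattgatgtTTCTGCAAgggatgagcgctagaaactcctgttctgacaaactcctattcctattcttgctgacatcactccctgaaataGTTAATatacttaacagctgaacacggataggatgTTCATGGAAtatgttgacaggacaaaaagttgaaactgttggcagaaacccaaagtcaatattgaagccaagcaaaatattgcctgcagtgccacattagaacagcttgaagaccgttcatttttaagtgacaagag
RefSeq promoters were found for 37 members, with 51 entries in all. The HNF1 arm was in 23.5% of these entries and in 6.9% of all 35097 promoters, the HNF4 letters in 3.9% and 0.4%, the C/EBP letters in 23.5% and 10.5%, and the STAT3 letters in 27.5% and 7.7%. Some entries are overlapping windows of 1 gene and count the same site again. By member, the HNF1 arm was in 11 of the 37, the HNF4 letters in 2, the C/EBP letters in 9 and the STAT3 letters in 12. Among the members with the HNF1 arm, C5 and CFI rose and MBL2 and PROC fell, but the last 2 each lost their call in 9 of the 16 alternative fits. CD55, whose fall held in all 16, had no match to the letters of the 4 motifs. Whether these letters have a part in the changes was not tested.

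Of the 7 clotting inhibitors and protein C system genes tested, 6 rose, against 36.1% of all genes. SERPINA5, the protein C inhibitor, was at 20.8, 21.0 and 21.4 FPKM in Hep3B-Con and at 62.0, 60.6 and 63.6 FPKM in Hep3B-KD, and its log2 fold change was 1.55 ± 0.03 (adjusted p = 1.37e-07). SERPIND1, heparin cofactor II, was at 39.3, 37.5 and 40.0 FPKM in Hep3B-Con and at 60.1, 60.1 and 64.0 FPKM in Hep3B-KD, and its log2 fold change was 0.66 ± 0.04 (adjusted p = 1.23e-05). In Hep3B-KD the FPKM of SERPINA5 thereby reached that of SERPIND1. SERPINA10, which inhibits factor Xa together with protein Z, was at 2.04 ± 0.249 FPKM in Hep3B-Con and 2.76 ± 0.335 FPKM in Hep3B-KD (adjusted p = 0.0225). Its call was lost without Hep3B-Con replicate 2 (adjusted p = 0.0566), without Hep3B-Con replicate 3 (adjusted p = 0.0639) and without Hep3B-KD replicate 1 (adjusted p = 0.0643). PROZ, its cofactor, rose from 3.31 ± 0.140 to 5.55 ± 0.875 FPKM (adjusted p = 0.00135), and TFPI, which shuts off tissue factor with factor VIIa, from 3.47 ± 0.161 to 4.42 ± 0.280 FPKM (adjusted p = 0.00453). SERPINC1, the gene of antithrombin, was nearly silent in both groups. Its reads were 3, 2 and 2 in Hep3B-Con and 7, 8 and 3 in Hep3B-KD.

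The protein C system divided. PROS1, the gene of the cofactor protein S, rose from 12.96 ± 0.150 FPKM in Hep3B-Con to 19.9 ± 0.809 FPKM in Hep3B-KD (log2 fold change 0.61 ± 0.04, adjusted p = 1.69e-05). PROC, the gene of protein C, was at 12.01 ± 0.347 and 10.6 ± 0.896 FPKM (log2 fold change -0.19 ± 0.06, adjusted p = 0.0442). Its call was lost when any library other than Hep3B-KD replicate 3 was left out, with adjusted p values from 0.0616 to 0.119. THBD, the endothelial receptor that presents thrombin to protein C, had 1 read in 1 Hep3B-Con library and 0 in the other 5 libraries.

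Of 6 vitamin K-dependent members, F7, F10, PROS1 and PROZ rose, PROC fell and F2 did not pass the test. All 4 serpins tested among the members rose, with log2 fold changes between 0.15 and 1.55, and SERPING1 at the lower end was the least stable of them. Serpins outside the members are not part of this count. Of all genes, 36.1% rose and 23.8% fell, and these small groups were not tested as sets.

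Members that act on fibrin or capture proteases also rose. A2M, the broad protease trap of plasma, was at 25.2, 26.5 and 26.6 FPKM in Hep3B-Con and at 42.8, 43.2 and 44.1 FPKM in Hep3B-KD, and its log2 fold change was 0.73 ± 0.03 (adjusted p = 3.55e-06). CPB2, a carboxypeptidase that protects fibrin from plasmin, was at 12.5 ± 0.376 FPKM in Hep3B-Con and 17.4 ± 0.684 FPKM in Hep3B-KD (adjusted p = 8.32e-05). PLG, the gene of plasminogen, had 0, 1 and 0 reads in Hep3B-Con and 3, 8 and 3 in Hep3B-KD, and is close to the limit of detection.

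Several members work as chains or partners of each other, and their FPKM was compared within libraries. The 7 pairs were picked after their values had been seen. C4BPB stood at 0.614, 0.621 and 0.620 of the FPKM of C4BPA in Hep3B-Con and at 0.934, 0.987 and 0.990 in Hep3B-KD. FPKM divides by all annotated exon bases, 3219 for C4BPB and 2441 for C4BPA. A ratio of FPKM between genes is therefore not a ratio of transcript levels, and is read only for its change between groups. The ratio of PROC to PROS1 was 0.905, 0.937 and 0.937 in Hep3B-Con and 0.541, 0.464 and 0.596 in Hep3B-KD. The ratio of CD55 to CD46 was 0.0871, 0.0726 and 0.0643 in Hep3B-Con and 0.0156, 0.0172 and 0.0180 in Hep3B-KD, the largest shift of the 7. C8A stood at 0.05, 0.0625 and 0.0452 of C8G in Hep3B-Con and at 0.0937, 0.0984 and 0.109 in Hep3B-KD. In these 4 pairs the groups did not overlap. How often the groups stand apart for pairs of other genes, or for single genes, was not counted. Of all genes, 36.1% rose and 23.8% fell. The ratios of C1R to C1S, of C8B to C8G and of C8A to C8B overlapped between groups. No test is given, because the pairs were picked on these values and 3 against 3 libraries cannot go below p = 0.1 in an exact permutation test.

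**Figure D3:**
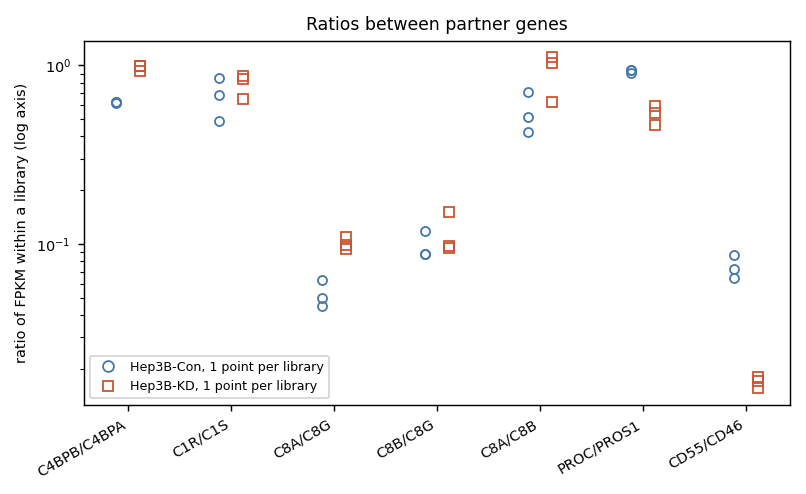
Ratio of the FPKM values of 2 partner genes within each library, on a log axis (y), for 7 pairs (x axis). Circles are Hep3B-Con and squares Hep3B-KD libraries, 3 each; the groups stand apart for C4BPB/C4BPA, C8A/C8G, PROC/PROS1 and CD55/CD46, and overlap for the other 3 pairs.

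Most other genes of the cascades and of clotting factor processing did not share the direction of the members. Of 55 further genes with a row, 27 were tested, among them the 11 processing genes described below. Of the 27, 6 rose and 17 fell, while 36.1% of all genes rose and 23.8% fell. In the complement list 4 were tested, and of these VTN, a regulator of the terminal pore, rose from 86.0 ± 0.370 to 161 ± 0.506 FPKM, while C1RL and CPN1 fell. In the list of other coagulation and fibrinolysis genes, 4 of 12 rose and 8 fell, with a median log2 fold change of -0.40. The 3 fibrinogen chains, the substrate of thrombin, all fell, with log2 fold changes of -1.23 ± 0.03 for FGA (adjusted p = 3.94e-07), -0.96 ± 0.04 for FGB and -0.44 ± 0.03 for FGG. THBS1, the gene of thrombospondin, fell from 174.5 ± 0.677 to 52.5 ± 0.643 FPKM (log2 fold change -1.73 ± 0.02). SERPINF2, the plasmin inhibitor, rose from 33.4 ± 1.53 to 75.6 ± 2.67 FPKM (log2 fold change 1.18 ± 0.04). PLAU, the gene of urokinase, rose from 0.203 ± 0.0973 to 0.942 ± 0.152 FPKM (log2 fold change 1.82 ± 0.33, adjusted p = 0.00306). PLAU passed the filter only through Hep3B-KD, and its reads in Hep3B-Con were 16, 6 and 9.

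The genes that process clotting factors mostly fell. Of 11 genes of the vitamin K cycle and of clotting factor processing that were tested, 1 rose and 7 fell. Their median log2 fold change was -0.50, and of all genes 36.1% rose and 23.8% fell. GGCX, the carboxylase of the vitamin K-dependent factors, was at 15.8 ± 0.351 and 15.7 ± 0.475 FPKM (adjusted p = 0.923). VKORC1 was under the filter, but overlaps of its exons with other genes were not examined, so its level may be understated.

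**Figure D4:**
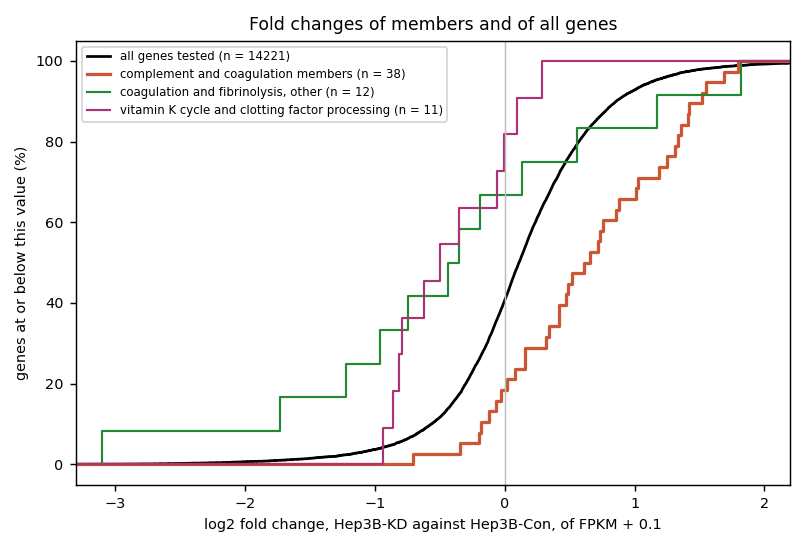
Share of genes in percent (y axis) with a log2 fold change at or below the value on the x axis. Fold changes are of FPKM + 0.1, Hep3B-KD against Hep3B-Con. Curves are for all 14221 genes tested, the 38 members and 2 lists, of other coagulation genes and of processing genes. The curve of the members lies to the right of that of all genes, with medians of 0.63 and 0.11, and the curves of the other coagulation genes (median -0.40) and of the processing genes (median -0.50) lie to the left over most of the range.

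A short hairpin can also act on transcripts that match bases 2 to 8 of its guide strand, read here as the strand complementary to the listed DAGLA target. The match, GCCTTCA in the sense of the transcript, was in the longest 3' UTR of 5 of the 38 tested members (13.2%) and of 14.6% of the 11189 tested genes with such a UTR of at least 50 bases. The 5 members were C3, C6, F7, CLU and CD59, of which 4 rose and CD59 did not pass the test, and the site of C3 is coding sequence in another of its transcripts. The sites of 3 of them are shown in transcript sense with the match in capitals (GRCh38, GENCODE release 29), from chr5:41142286-41142315 on the minus strand, chr13:113119405-113119434 on the plus strand and chr11:33705580-33705609 on the minus strand:
C6: caaaagcctttGCCTTCAtgaagcatacat
F7: gctgctgctctGCCTTCAttgctggagaca
CD59: cagtgcagccaGCCTTCAgtctgtggccaa
Members with a match therefore included strong and weak rises, and the share with a match was close to that of all genes.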

How the data were processed

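The authors deposited FPKM values for 6 mRNA libraries, 3 per group. The submitters' processing notes name TopHat2 2.0.12, Bowtie2 2.0.6 and GRCh37; the counting tool and annotation are not given in the sources used here. Multiplied by GENCODE release 29 (GRCh38) exon lengths and library totals, 100% of values above 0 came within 0.01 of a whole read, summing to 15861039 to 17572714 reads per library, so coordinates are given on GRCh38 although the notes name GRCh37. Read limits cover counting error only, and limma intervals the spread between libraries. Values were tested as log2(FPKM + 0.1) with limma 3.58.1 (lmFit, eBayes with a variance trend, two-sided, R 4.3.3) for 14221 genes averaging 0.5 FPKM or more, with Benjamini-Hochberg adjustment over all of them; fold changes on this scale understate those of low genes. The test was checked on simulated data in which far fewer genes changed than were called here, so the check does not cover this setting. Values in every library were given for members past 2-fold and an adjusted p under 0.05 and for the 10 with the highest mean FPKM; outside the members, the text named list genes past the same thresholds (1 of them is not reported here), GGCX, VKORC1 and DAGLA, and other genes only where a count of few called for it. The members and lists were chosen with earlier results of these data known. No column of values was left unused (0 others), and replicates differed by more than counting noise (chi-square per gene 1.80 to 3.30). There were 16 alternatives: other filters, pseudocounts and scalings, no variance trend, a replicate block, each of the 6 libraries left out, and voom on recovered reads.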

Additional observations from a re-analysis of the deposited data

How the results depend on the processing

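Of the 31 called members, 25 kept their call and direction in all 16 alternatives that tested them. The exceptions were C2, SERPING1, MBL2, PROC, SERPINA10 and TFPI, the last by quantile normalization only (adjusted p = 0.0623). Over single member values, 542 kept direction and side of the threshold, 46 lost and 6 gained a call, and 11 changed sign. All genes shifted up by a median of 0.11, and centring each library on its median log ratio removed this shift (all genes 0.00586, members 0.53). The split of members was then 25 higher and 6 lower, with C8G, CD59 and F2 added to those lower, and that of all genes 4064 higher and 4308 lower. Centring turned C8B to -0.0228 and CFD to -0.0851. Quantile normalization turned C8B to -0.16, CFD to -0.0648, MASP1 to -0.0878 and F2 to 0.0833 (adjusted p = 0.0335), moved the members' median to 0.585 and that of all genes to 0.0147, and called 477 genes at least 2-fold higher. C8B was -0.0303 without Hep3B-Con replicate 3 and -0.105 without Hep3B-KD replicate 1, and CFD was -0.0304 without Hep3B-Con replicate 2, -0.0273 without Hep3B-Con replicate 3 and -0.0112 without Hep3B-KD replicate 2. A pseudocount of 1 FPKM left 6 members at least 2-fold higher, the same 6 that held this call in every fit that tested them (C4BPB, C5, C6, CD46, CLU and SERPINA5), with 255 genes higher and 248 lower and medians of 0.519 for members and 0.0855 for all genes. With no filter 1 member was called lower and all genes had a median of 0.121; the median of all genes was 0.0855 with a mean of at least 1 FPKM, 0.135 as TPM and 0.113 by voom. Over the fits without 1 library, C8B ranged from -0.105 to 0.235 and CFD from -0.0304 to 0.113. Leaving out 1 library gave 25 to 27 members higher, 1 to 2 lower (1 without Hep3B-Con replicate 1, Hep3B-KD replicate 1 or Hep3B-KD replicate 2), 11 to 13 at least 2-fold higher, and medians from 0.588 to 0.642 for members and from 0.105 to 0.113 for all genes. The replicate numbers did not pair the libraries (correlations of deviations between same-numbered libraries -0.0134, -0.0656 and -0.0011), and with the replicate block 26 members were higher and 1 lower. The causes of these changes were not tested. At 15861039 to 17572714 reads per library, members with a handful of reads could not be compared.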
